A study of Homo sapiens with 2 samples.

Results

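TREM2, CD68, CD14, TLR4 and APOE, 5 genes commonly used as identity markers of microglia and other myeloid cells, were examined in the RNA-seq data of HMC3 cells treated with rhPOSTN or with PBS. They were taken by gene symbol, with earlier results of these data known, and make up 5 of the 11943 protein-coding genes listed for both groups. HMC3 is an established human microglial cell line, labelled here as wild type. rhPOSTN is recombinant human periostin, a secreted matrix-associated protein that binds integrins, and PBS is its vehicle. Cells received a single dose for a single duration, and each group comprised 3 libraries. No source used here states that these came from separate cultures, so the tests measure only the spread between libraries, which may be technical.

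Microglia are the resident macrophages of the brain, and HMC3 cells are used as their culture model. TREM2 is a surface receptor that binds lipids and lipoproteins and signals through the adaptor TYROBP, and APOE, a secreted lipoprotein component, is among its ligands. CD14 hands bacterial lipopolysaccharide to TLR4, which signals together with LY96 (MD-2), while CD68 is a heavily glycosylated membrane protein of late endosomes and lysosomes in macrophages.

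Expression was given as FPKM, the fragments of a gene scaled to transcript length and to the mapped fragments of the library, so levels of different genes can be compared. FPKM summed to between 184122 and 195494 in a library, and the number of reads behind each value is unknown. One of the 6 libraries, PBS library 3, was unlike the other 5. Its Pearson correlation with them across genes was 0.926 to 0.949, against 0.977 to 0.985 for the 10 pairs among the others. Genes of the mitochondrial genome held 1.48% of its FPKM, against 4.95% to 7.77% in each of the others. Differences of the markers and of the gene lists are therefore given with and without this library. Since RNA was measured in bulk, fewer cells expressing a gene and less RNA per cell cannot be told apart.

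All 5 markers had a value above 0 in every library. Only 10 to 25 of the 11943 listed genes had a value of 0 in a given library. By the mean of 3 libraries, the order of FPKM levels in either group was APOE, CD68, TREM2, CD14 and TLR4, but in PBS the order of the last pair rests on PBS library 3. The mean of APOE lay at percentile 84.2 of all listed genes after rhPOSTN and at percentile 84.3 after PBS. CD68 lay at percentile 68.5 after rhPOSTN and 70.1 after PBS, also above the middle of the distribution. TREM2 lay in its lower part, at percentile 32.9 after rhPOSTN and 33.2 after PBS. CD14 lay at percentile 21.2 after rhPOSTN and 15.1 after PBS. TLR4 lay at percentile 12.6 after rhPOSTN and 14.3 after PBS. In PBS libraries 1 and 2 alone, TLR4 averaged 1.71 FPKM and CD14 0.990 FPKM, so that CD14 was the lower of the pair. APOE and CD68 averaged 16.2 and 15.8 FPKM in those libraries and were close to each other. Across the rhPOSTN libraries, the FPKM ranges of neighbours in this order did not overlap. Across the PBS libraries, APOE overlapped CD68 and CD14 overlapped TLR4.

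**Figure D1:**
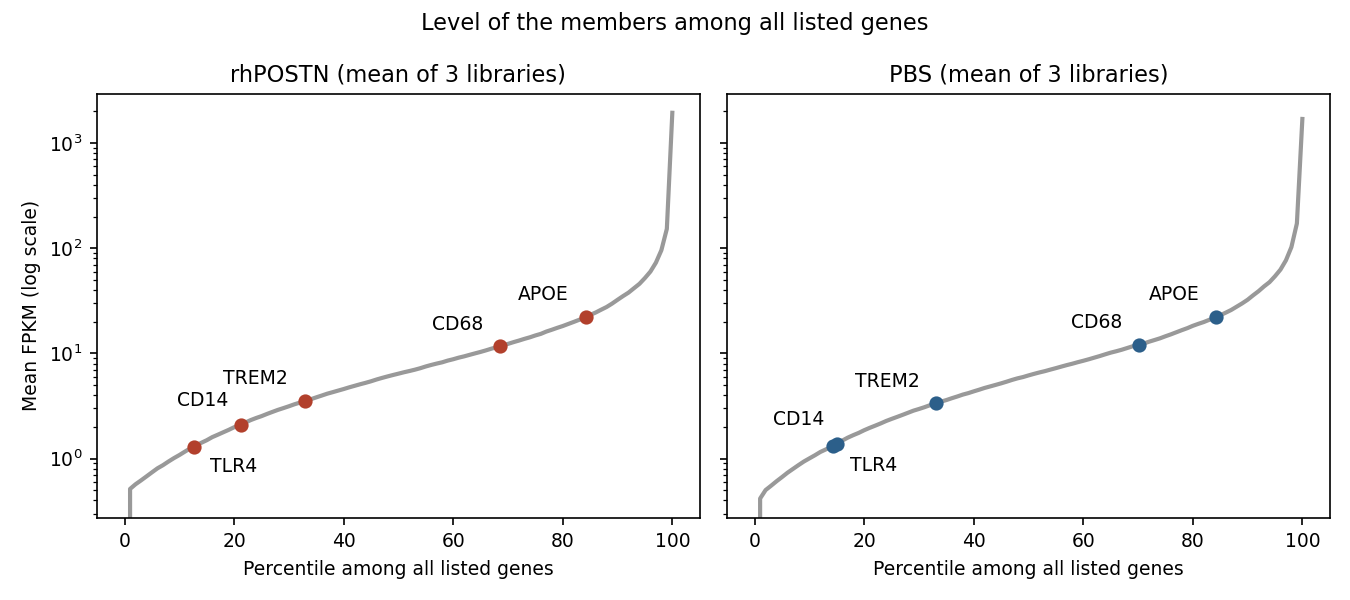
Mean FPKM (log scale) against percentile among all 11943 listed genes (grey curve), with rhPOSTN on the left and PBS on the right; points are means of 3 libraries. APOE and CD68 lie in the upper part of the curve and TREM2, CD14 and TLR4 in its lower part in both groups.

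To ask whether rhPOSTN changed these markers, the groups were compared with limma on log2(FPKM + 1) over the 10982 genes with a mean of at least 1 FPKM in at least 1 group. With all 6 libraries, 0 of the 5 markers passed an adjusted p of 0.05, against 0.0182% of all tested genes. The 2 genes that passed, AL132780.3 and TIGD1, are not among the markers. None of the markers had an unadjusted p under 0.05, a threshold reached by 2.45% of tested genes with higher and 0.765% with lower values after rhPOSTN. None had groups free of overlap either, against 8.94% of tested genes with rhPOSTN libraries all higher and 2.76% with them all lower. Without PBS library 3, again 0 of 5 passed the adjusted threshold, against 0.1% of 10969 tested genes. At an unadjusted p under 0.05, CD14 and APOE were then higher after rhPOSTN (background 7.07%) and CD68 was lower (background 2.48%). CD14 and APOE lay above PBS libraries 1 and 2 in all 3 rhPOSTN libraries, as did 20.4% of tested genes. CD68 and TLR4 lay below them in all 3, as did 10.2%. Because logs are averaged, a log2 difference can have another sign than the difference in mean FPKM. This was so with all libraries for APOE, TLR4 and CD68, whose ratios of means were 0.997, 0.986 and 0.964 beside log2 differences of 0.08, 0.03 and 0.10. The 95% intervals of the differences are wide, so the absence of a call does not show that the markers stayed the same.

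**Figure D2:**
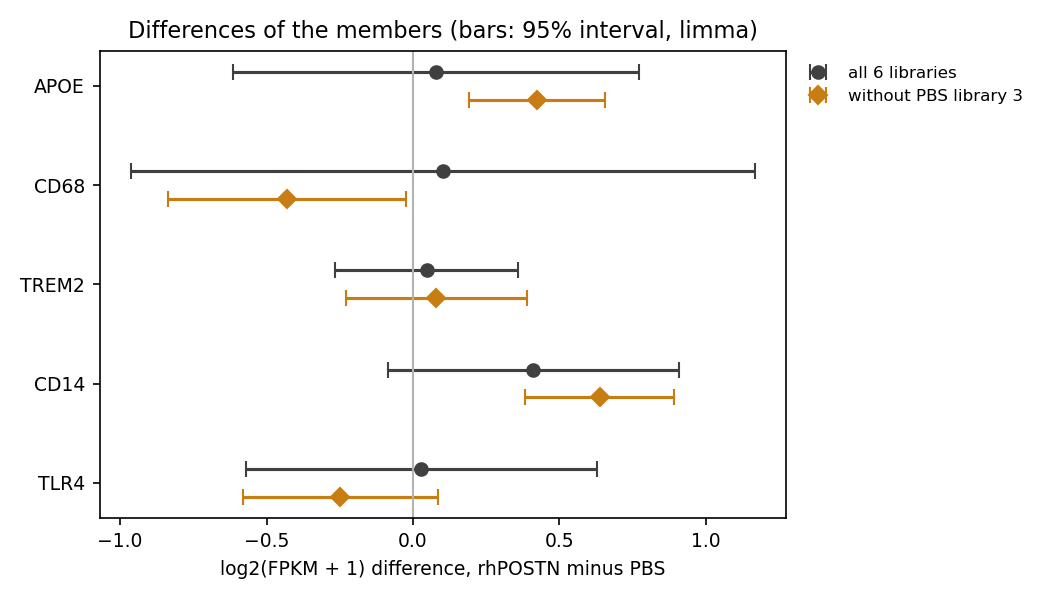
Difference in log2(FPKM + 1), rhPOSTN minus PBS, for each marker with its 95% interval from limma, with all 6 libraries (grey circles) and without PBS library 3 (orange diamonds). With all libraries every interval spans 0; without PBS library 3 the estimates of CD68 and TLR4 lie at -0.43 and -0.25.

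Among the receptors, TREM2 (ENSG00000095970.16_2, GRCh37 chr6:41126244-41130924, minus strand) had the narrowest range of the 5 markers over the 6 libraries. Its values were 2.91, 3.799 and 3.84 FPKM in rhPOSTN libraries 1 to 3, against 3.12, 3.39 and 3.56 FPKM in PBS libraries 1 to 3. The lowest and the highest value were both rhPOSTN libraries, and the PBS libraries lay between them. The means were 3.52 ± 0.524 FPKM after rhPOSTN and 3.36 ± 0.220 FPKM after PBS (SD, n = 3 each). The difference in log2(FPKM + 1) was 0.05 ± 0.13 (SE), with a 95% interval of -0.27 to 0.36 and a limma adjusted p of 0.963. The exact two-sided permutation test gave p = 0.7, where 0.1 is the smallest p that 3 libraries against 3 allow. PBS library 3 deviated from the mean of PBS libraries 1 and 2 by 0.10 on the log2 scale, and 13.6% of tested genes deviated less. Leaving it out gave 0.08 ± 0.12 (limma adjusted p = 0.838).

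TREM2 signalling needs an adaptor, and neither TYROBP nor HCST (DAP10), the adaptors known to pair with it, had a row in the tables analysed here. SYK, the kinase recruited to the phosphorylated adaptor, had none either, nor had VAV3, MS4A4A, MS4A6A and TREML2. Of a list of 15 genes around TREM2, 8 had a row and were tested, 6 with positive and 2 with negative log2 differences. By limma 0 of them passed the adjusted threshold, with or without PBS library 3. At an unadjusted p under 0.05, 1 was higher in each case (background 2.45% with that library and 7.07% without it). The 8 had a median difference of 0.13 on the log2 scale, and of 0.06 once PBS library 3 was left out. Over all tested genes, the median was 0.06 with 6974 of 10982 genes positive, and 0.03 with 6459 of 10969 positive without that library. The tallies of each list are to be read beside these. The highest levels were those of ADAM17, a protease that sheds TREM2 from the cell surface, and GRB2, a signalling adaptor. ADAM17 had 31.0, 27.1 and 29.9 FPKM after rhPOSTN and 29.9, 28.7 and 23.9 FPKM after PBS, with overlapping groups. GRB2 had the largest negative difference of the list (-0.20 on the log2 scale, limma adjusted p = 0.951), which was 0.06 without PBS library 3. PIK3R1, a regulatory subunit of phosphoinositide 3-kinase, had the largest positive one. Its values were 2.30, 1.74 and 2.15 FPKM after rhPOSTN, against 1.45, 1.20 and 1.30 FPKM after PBS, without overlap of the groups. Of all tested genes, 8.94% likewise had rhPOSTN libraries all higher. PIK3R1 differed by 0.40 ± 0.12 on the log2 scale (SE, limma adjusted p = 0.951), and by 0.40 without PBS library 3 as well.

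APOE (ENSG00000130203.9_3, GRCh37 chr19:45409011-45412650, plus strand), the lipoprotein ligand, had the highest level of the set. It reached 22.6, 23.8 and 20.0 FPKM in rhPOSTN libraries 1 to 3, against 16.1, 16.4 and 34.2 FPKM in PBS libraries 1 to 3. The rhPOSTN libraries lay together, above PBS libraries 1 and 2 and below PBS library 3. Both group means came to 22.2 FPKM, with an SD of 1.96 after rhPOSTN and 10.4 after PBS (n = 3 each). With all libraries the log2 difference was 0.08 ± 0.29 (95% interval -0.61 to 0.77, limma adjusted p = 0.972, exact permutation p = 1). Without PBS library 3 it was 0.42 ± 0.09 (95% interval 0.19 to 0.65), a 1.36-fold ratio of means. That difference had an unadjusted limma p of 0.00468 and an adjusted p of 0.428, and did not pass the threshold. PBS library 3 deviated from PBS libraries 1 and 2 by 1.03 on the log2 scale, more than 91.9% of tested genes did. The part of its low mitochondrial share in the result was not tested. In GENCODE v29, the transcript AC011481.3 overlaps APOE on the same strand, and how reads were divided there is not given.

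Genes of lipoprotein transport and sterol control around APOE were mostly listed, with 20 of 24 having a row. APOC2, a neighbour of APOE in the same gene cluster, APOD, ABCG1 and LPL had none. Of 19 tested genes, 14 had positive and 5 negative log2 differences, with a median of 0.05. By limma 0 passed the adjusted threshold, and 2 higher and 1 lower gene had an unadjusted p under 0.05 (background 2.45% and 0.765%). With PBS library 3 left out there were again 14 positive and 5 negative differences, with a median of 0.08 and 0 calls. At that unadjusted p, 4 were then higher (background 7.07%) and 1 lower (background 2.48%). PLTP, the phospholipid transfer protein, had the highest level, with 52.2, 53.9 and 49.4 FPKM after rhPOSTN and 49.9, 52.0 and 39.6 FPKM after PBS. TOMM40, which lies beside APOE and encodes a channel of the mitochondrial import machinery, had the largest negative difference. It had 10.4, 12.8 and 13.2 FPKM after rhPOSTN, against 14.6, 16.4 and 16.1 FPKM after PBS. All rhPOSTN libraries of TOMM40 lay below all PBS libraries, as in 2.76% of tested genes. APOE did not have this pattern. The log2 difference of TOMM40 was -0.35 ± 0.13 (SE, limma adjusted p = 0.951), and -0.33 without PBS library 3. MYLIP, a ubiquitin ligase that sends lipoprotein receptors to degradation and a target of the sterol-sensing LXR receptors, had the largest positive difference. It had 3.72, 3.31 and 3.69 FPKM after rhPOSTN, against 3.0, 2.47 and 2.66 FPKM after PBS, again without overlap (background 8.94%). MYLIP differed by 0.30 ± 0.11 on the log2 scale (SE, limma adjusted p = 0.951), and by 0.30 without PBS library 3.

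**Figure D3:**
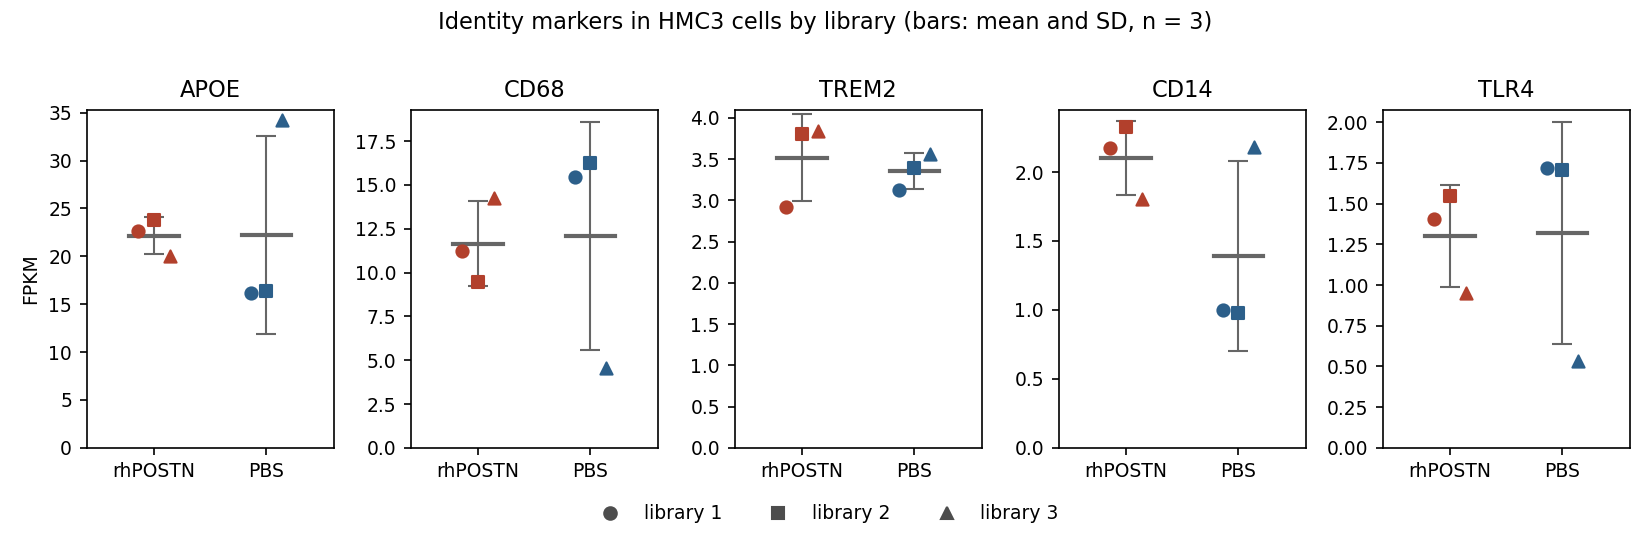
FPKM of the 5 markers in each library, rhPOSTN on the left of each panel and PBS on the right; symbols give the library number, horizontal bars the mean and error bars the SD (n = 3 each). PBS library 3 (triangle) lies apart from PBS libraries 1 and 2 for APOE (34.2 FPKM), CD68 (4.57 FPKM), CD14 (2.18 FPKM) and TLR4 (0.531 FPKM), and close to them for TREM2 (3.56 FPKM).

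CD14 (ENSG00000170458.13_3, GRCh37 chr5:140011313-140013286, minus strand), the lipopolysaccharide co-receptor, had the largest difference of the set with all libraries. It had 2.18, 2.32 and 1.81 FPKM in rhPOSTN libraries 1 to 3, against 1.00, 0.979 and 2.18 FPKM in PBS libraries 1 to 3. PBS libraries 1 and 2 lay below every rhPOSTN library, whereas PBS library 3 lay within the rhPOSTN range. The means were 2.10 ± 0.266 FPKM after rhPOSTN and 1.39 ± 0.689 FPKM after PBS (SD, n = 3 each). The log2 difference was 0.41 ± 0.21 (SE, 95% interval -0.08 to 0.91), with a limma adjusted p of 0.951 and an exact permutation p of 0.3. Without PBS library 3 it was 0.64 ± 0.10 (95% interval 0.38 to 0.89), a 2.12-fold ratio of means, with an unadjusted limma p of 0.000975 and an adjusted p of 0.255. The permutation test reached its smallest possible p, 0.1, for 3 libraries against 2. Over all alternatives the adjusted p of CD14 ranged from 0.0679 to 1.00. PBS library 3 deviated from the other PBS libraries by 0.68, more than 77.1% of tested genes did.

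TLR4 (ENSG00000136869.13_2, GRCh37 chr9:120466610-120479149, plus strand), the signalling receptor, did not follow CD14 in its values. It had 1.41, 1.55 and 0.950 FPKM in rhPOSTN libraries 1 to 3, against 1.72, 1.71 and 0.531 FPKM in PBS libraries 1 to 3. PBS libraries 1 and 2 were the highest and PBS library 3 the lowest, with the rhPOSTN libraries in between. The means were 1.30 ± 0.313 FPKM after rhPOSTN and 1.32 ± 0.683 FPKM after PBS (SD, n = 3 each). The log2 difference was 0.03 ± 0.25 (SE, 95% interval -0.57 to 0.63; limma adjusted p = 0.986, exact permutation p = 1). Without PBS library 3 its sign turned, to -0.25 ± 0.13 (95% interval -0.58 to 0.08, limma adjusted p = 0.589). The span of TLR4 overlaps that of the protein-coding gene AL160272.2 on the same strand in GENCODE v29. Whether this affects the value of TLR4 was not tested.

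The ratio of CD14 to TLR4 within a library does not depend on how the library was scaled. It was 1.548, 1.501 and 1.903 in rhPOSTN libraries 1 to 3, against 0.582, 0.573 and 4.11 in PBS libraries 1 to 3. TLR4 thus exceeded CD14 in PBS libraries 1 and 2 and CD14 exceeded TLR4 in the other 4 libraries. This ratio was chosen after the values had been seen and is given without a test.

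Among 26 further genes of the TLR4 pathway, 22 had a row. LBP, which carries lipopolysaccharide in serum, CD180 and LY86, a related receptor pair, and IRAK3, an inhibitory kinase, had none. Of 21 tested genes, 11 had positive and 10 negative log2 differences, with a median of 0.03, and 0 passed the adjusted threshold or an unadjusted p under 0.05 by limma. Leaving out PBS library 3, 14 were positive and 7 negative, with a median of 0.07 and 0 calls. At that unadjusted p, 1 gene was then higher (background 7.07%). That gene, named after its values had been seen, was TOLLIP, an inhibitory adaptor of the pathway. TOLLIP had 10.7, 11.2 and 9.03 FPKM after rhPOSTN, against 5.06, 5.86 and 14.3 FPKM after PBS. As for APOE, its rhPOSTN libraries lay above PBS libraries 1 and 2 and below PBS library 3. TOLLIP differed by 0.39 over all libraries, where CD14 differed by 0.41. Once PBS library 3 was left out, TOLLIP differed by 0.80 (limma adjusted p = 0.200), more than any of the 5 markers did then. LY96, the co-receptor that holds lipopolysaccharide on TLR4, had the largest positive difference (0.52 ± 0.44, SE), which was 0.01 without PBS library 3. It had 6.98, 9.25 and 11.9 FPKM after rhPOSTN, against 8.66, 9.61 and 2.52 FPKM after PBS. As for TLR4, the lowest LY96 value was that of PBS library 3. TICAM2, an adaptor of the endosomal branch, had the largest negative difference (-0.64 ± 0.45, SE), which was -0.44 without PBS library 3. HSP90B1, the chaperone of the endoplasmic reticulum on which folding of Toll-like receptors depends, was the highest of the list, at 572, 591 and 558 FPKM after rhPOSTN and 529, 537 and 758 FPKM after PBS. CNPY3, its co-chaperone, was next, at 50.1, 57.7 and 52.1 FPKM after rhPOSTN and 49.2, 52.9 and 73.8 FPKM after PBS. In both chaperone genes PBS library 3 was the highest of the 6.

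CD68 (ENSG00000129226.13_3, GRCh37 chr17:7482785-7485431, plus strand), the lysosomal glycoprotein, varied most among the PBS libraries on the log2 scale. It had 11.2, 9.45 and 14.2 FPKM in rhPOSTN libraries 1 to 3, against 15.4, 16.2 and 4.57 FPKM in PBS libraries 1 to 3. The rhPOSTN libraries lay below PBS libraries 1 and 2 and above PBS library 3. The means were 11.6 ± 2.42 FPKM after rhPOSTN and 12.1 ± 6.51 FPKM after PBS (SD, n = 3 each). With all libraries the log2 difference was 0.10 ± 0.44 (SE, 95% interval -0.96 to 1.17; limma adjusted p = 0.976, exact permutation p = 1). Without PBS library 3 it was -0.43 ± 0.16 (95% interval -0.84 to -0.02), a 0.736-fold ratio of means. Its unadjusted limma p was then 0.0417 and its adjusted p 0.520. The deviation of PBS library 3 from the other PBS libraries was -1.59 on the log2 scale, larger in size than that of 98.6% of tested genes. For TLR4 the same deviation was -0.83, larger in size than that of 85.2%. The transcript AC016876.2 on the same strand and AC016876.1 on the opposite strand overlap CD68 in GENCODE v29.

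The ratio of APOE to CD68 was 2.01, 2.52 and 1.41 in rhPOSTN libraries 1 to 3, against 1.05, 1.01 and 7.48 in PBS libraries 1 to 3. APOE was thus close to CD68 in PBS libraries 1 and 2, above it in the rhPOSTN libraries, and furthest above it in PBS library 3. This ratio, too, was chosen after the values had been seen.

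All 24 entries of a lysosome list, 23 genes in all, had a row, in contrast to the myeloid lists described further on. Of 23 tested genes, 16 had positive and 7 negative log2 differences, with a median of 0.10. By limma 0 passed the adjusted threshold and 1, with a higher value, had an unadjusted p under 0.05 (background 2.45%). In the 5 libraries without PBS library 3, 14 were positive and 9 negative, with a median of 0.10 and 0 calls. At that unadjusted p, 3 were then higher (background 7.07%) and 1 lower (background 2.48%). PSAP, the precursor of the saposins that activate lipid-degrading enzymes, had the highest level, at 257, 257 and 225 FPKM after rhPOSTN and 220, 212 and 358 FPKM after PBS. CD63, a tetraspanin of late endosomes, had 82.8, 106 and 90.7 FPKM after rhPOSTN, against 79.1, 92.8 and 104 FPKM after PBS. In PSAP, as in APOE, the rhPOSTN libraries lay between PBS libraries 1 and 2 and PBS library 3. LAMP3, a lysosome-associated membrane protein, had the largest positive log2 difference (0.39), which was -0.11 without PBS library 3. CTSL, a cysteine protease, had the largest negative one (-0.18, limma adjusted p = 0.951), which was -0.07 without PBS library 3. SCARB2, a lysosomal membrane protein named after its values had been seen, then had the largest (-0.46, limma adjusted p = 0.468, against -0.15 with all libraries). CTSD, an aspartic protease, had 49.9, 54.9 and 51.4 FPKM after rhPOSTN, against 35.4, 46.2 and 37.9 FPKM after PBS, without overlap (background 8.94%). The log2 difference of CTSD was 0.39 ± 0.13 (SE, limma adjusted p = 0.951), and 0.36 without PBS library 3.

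CTSD also belongs to a list of 18 genes known, mainly from mouse, to accompany TREM2 and APOE in the damage-associated state of microglia. Of that list 14 genes had a row, whereas SPP1, LPL, ITGAX and CLEC7A had none. The 12 tested genes had a median log2 difference of 0.04, with 7 positive and 5 negative. By limma 0 passed the adjusted threshold and 1, with a higher value, had an unadjusted p under 0.05 (background 2.45%). When PBS library 3 was left out the median was -0.05, with 5 positive and 7 negative differences and 0 calls. At that unadjusted p, 2 genes were then higher (background 7.07%). CTSD had the largest positive difference. AXL, a receptor tyrosine kinase for apoptotic-cell ligands, was the highest of the list, with 91.2, 90.0 and 86.1 FPKM after rhPOSTN and 90.3, 94.3 and 121 FPKM after PBS. FABP5, a fatty-acid carrier, had the largest negative log2 difference with all libraries (-0.18, limma adjusted p = 0.951), which was -0.06 without PBS library 3. LGALS3 (galectin-3), named after its values had been seen, then had the largest (-0.24, against 0.24 with all libraries).

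PU.1, the product of SPI1, is a transcription factor of myeloid cells and binds purine-rich sequences around GAGGAA. The promoter windows of CD14, TLR4 and CD68, the markers with 1 annotated start and at least 1 such run of letters, are shown for that reason. Each line gives the 250 bases before the annotated start in RefSeq (GRCh38.p14), on the strand of the gene, with GAGGAA or its reverse complement TTCCTC in capitals.
CD14: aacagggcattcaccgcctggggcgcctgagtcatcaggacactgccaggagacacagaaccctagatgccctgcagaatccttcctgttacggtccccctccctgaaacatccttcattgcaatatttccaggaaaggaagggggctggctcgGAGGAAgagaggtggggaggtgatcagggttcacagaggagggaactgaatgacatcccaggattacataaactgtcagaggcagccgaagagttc
TLR4: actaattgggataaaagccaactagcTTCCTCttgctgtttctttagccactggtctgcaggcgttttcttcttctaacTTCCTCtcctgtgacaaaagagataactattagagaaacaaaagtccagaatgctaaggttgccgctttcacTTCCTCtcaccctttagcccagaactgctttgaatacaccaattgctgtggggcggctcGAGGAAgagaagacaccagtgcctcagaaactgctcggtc
CD68: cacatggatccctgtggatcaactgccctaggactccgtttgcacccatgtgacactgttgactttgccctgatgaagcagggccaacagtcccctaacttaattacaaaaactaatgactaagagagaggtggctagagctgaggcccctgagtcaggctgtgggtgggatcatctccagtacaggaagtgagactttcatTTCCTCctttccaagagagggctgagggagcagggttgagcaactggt
The CD14 window (chr5:140633176-140633425) held 1 match, which begins 96 bases before the start. The TLR4 window (chr9:117704153-117704402) held 4 matches, beginning 224, 171, 99 and 40 bases before the start. The CD68 window (chr17:7579388-7579637) held 1 match, 48 bases before the start. TREM2 had 0 matches in its window, and 2 of the 3 annotated APOE starts had at least 1. Over all 35116 windows of this length, 23.6% held a match, so that the letters are frequent. A match describes the sequence and does not show binding. SPI1 itself had no row.

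The wider myeloid programme was then checked for rows. Of 43 microglial and myeloid markers other than the 5, 10 had a row and 33 had none. A missing row is not a measured level of 0. Every listed gene reached at least 0.520 FPKM in at least 1 library, and the rule by which genes were listed is not given. Of the markers of homeostatic microglia, TMEM119, P2RY12, P2RY13, CX3CR1, SALL1, GPR34, SLC2A5 and CSF1R had no row, nor had the transcription factors SPI1, IRF8 and MEF2C. Of the general myeloid markers, PTPRC (CD45), ITGAM (CD11b), ITGB2, AIF1 (IBA1), TYROBP, FCER1G, HLA-DRA, CD163, MRC1, MSR1, CD33, CD86, LYZ and LST1 had none. The Fc receptors FCGR1A, FCGR2A and FCGR3A, the complement genes C1QA, C1QB and C1QC and the transcription factor CEBPA were likewise without a row. The 5 markers were taken from among listed genes, so that they have values does not test the label of the cells as microglia, and most defining markers had no value to check it against.

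**Figure D4:**
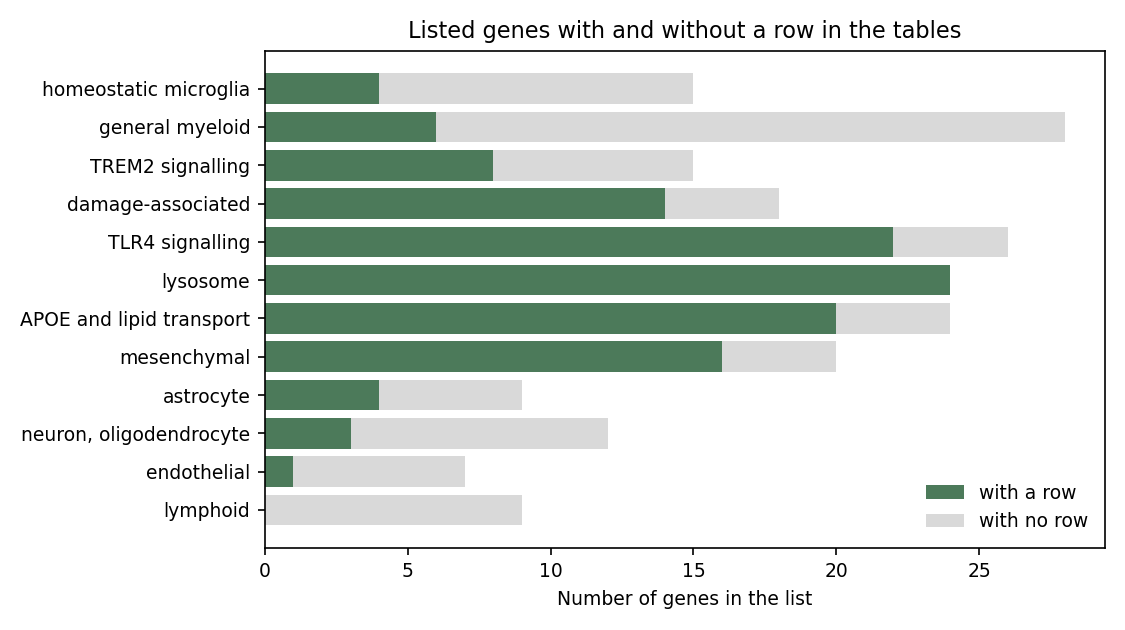
Number of genes of each list with a row (green) and with no row (grey) in the tables. Homeostatic microglial and general myeloid markers mostly lack a row, whereas lysosomal genes all have one and 16 of 20 mesenchymal markers do.

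The 10 that were listed are largely genes that other cells also express. CEBPB, a transcription factor of stress and inflammatory responses, had 49.3, 60.0 and 45.9 FPKM after rhPOSTN and 40.7, 43.0 and 61.0 FPKM after PBS. As for APOE, PBS library 3 was the highest for CEBPB. MERTK, a receptor for apoptotic-cell ligands, and TGFBR1, a TGF-beta receptor, averaged 8.24 and 6.32 FPKM over the 6 libraries. CD74, the invariant chain of class II presentation, RUNX1, CTSS and LAPTM5 averaged between 2.37 and 3.22 FPKM. OLFML3 and HLA-DRB1 averaged 0.875 and 0.558 FPKM and fell below the minimum for testing. Of the 8 that were tested, 6 had positive and 2 negative log2 differences, and 0 passed the adjusted threshold or an unadjusted p under 0.05 by limma. Once PBS library 3 was left out, 4 were positive and 4 negative, again with 0 at either threshold.

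Of 20 mesenchymal markers, 16 had a row, and their FPKM summed to 999 to 1108 per library after rhPOSTN and 1059 to 1394 after PBS. The 1394 was that of PBS library 3, and PBS libraries 1 and 2 had 1059 and 1084. The 5 markers summed to 40.4 to 40.9 FPKM after rhPOSTN and 37.4 to 45.0 after PBS. Here 45.0 was that of PBS library 3, and PBS libraries 1 and 2 had 37.4 and 38.7. The 4 listed homeostatic microglial markers summed to 61.6 to 70.9 after rhPOSTN and 59.0 to 69.0 after PBS, with PBS library 3 the lowest. The 6 listed general myeloid markers summed to 59.4 to 71.8 and 52.6 to 70.8, where 70.8 was that of PBS library 3. These sums cover unlike numbers of genes and do not rank cell types. FN1 (fibronectin) and VIM (vimentin), the highest of the mesenchymal list, averaged 242 and 187 FPKM over the 6 libraries. COL1A2 averaged 0.574 FPKM, the lowest of the list, and fell below the minimum for testing. Of 15 tested mesenchymal genes, 6 had positive and 9 negative log2 differences, against 10 and 5 without PBS library 3. TWIST1 had the largest positive difference (0.35, and 0.35 without that library) and ENG the largest negative (-0.42, and -0.53 without it). By limma 0 passed the adjusted threshold in either case. COL3A1, PDGFRA, LUM and DCN had no row. All 9 lymphoid markers lacked a row, as did 6 of 7 endothelial and 9 of 12 neuronal and oligodendrocyte markers. So did 5 of 9 astrocyte markers, among them GFAP and AQP4. The astrocyte markers with a row, GJA1, ALDOC, SOX9 and SLC1A3, averaged 16.6, 2.72, 2.15 and 1.34 FPKM over the 6 libraries. TUBB3, SNAP25 and MBP of the neuronal and oligodendrocyte list averaged 3.11, 1.85 and 1.48 FPKM, and endothelial CDH5 0.601 FPKM. The part of any other cell type in the marker levels was not tested.

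As a description of likeness, the 3 tested genes with the highest Pearson correlation of log2(FPKM + 1) with each marker over the 6 libraries were taken. These points share the libraries, PBS library 3 among them, and so the values are given with no p. For APOE they were GP1BB, RNF215 and CSRNP1 (0.997 to 0.999). For CD68 they were BEND7, CASC3 and KIAA1143 (0.998 to 0.999). For CD14 they were KIF12, MAPKAP1 and ANKRD2 (0.993 to 0.995). TLR4 was most like ZNF160, MLX and FBXO8 (0.987 to 0.988), and TREM2 most like SNX24, SMIM11B and CDKN1C (0.956 to 0.976). Over the 5 libraries without PBS library 3, BEND7 was still among the 3 nearest to CD68 and GP1BB among those nearest to APOE, while the other names were exchanged.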

How the data were processed

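RNA was sequenced from HMC3 cells after rhPOSTN or PBS, with groups taken from the treatment label and 3 libraries each. According to the methods, the authors enriched mRNA, trimmed reads with Cutadapt, aligned them with HISAT2, estimated abundance with StringTie and compiled it with Ballgown. The submitters' processing notes name GRCh37. The deposited values are FPKM, 1 per gene and library. The header for the rhPOSTN libraries names no unit, and FPKM was taken from that for the PBS libraries and from the methods. FPKM keeps no read counts, so depth is unknown. Not given in the sources used here are the tool versions and whether counting used the strand. No column held comparisons by the authors, and the number of per-sample columns not used was 0.

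FPKM was analysed as log2(FPKM + 1), which understates differences of low genes. Genes with a mean of at least 1 FPKM in at least 1 group were tested with limma 3.58.1 in R 4.3.3 (lmFit, eBayes with trend, no covariate), with Benjamini-Hochberg adjustment over all tested genes at 0.05. The fit was tested on simulated data. Exact two-sided permutation tests were added for each marker. The markers and the 13 gene lists were chosen with earlier results of these data known. Of 203 list entries, 120 had a row, 1 of them by an older symbol. Named genes were every marker, any gene called by limma, and of each list the 2 highest by mean FPKM, the largest positive and negative difference and those without a row, plus the 3 genes most like each marker. Of the listed genes, 2 are counted but not reported here by name. Other genes (TOLLIP, SCARB2, LGALS3, CTSD in the lysosome list and the remaining listed myeloid markers) were named after their values had been seen. Alternatives were other pseudocounts (0.1 and 5), filters, scalings, limma settings, library weights, a block and each library left out.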

Additional observations from a re-analysis of the deposited data

How the results depend on the processing

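Under every alternative that could be run, 0 of the 5 markers were called. TREM2, CD14 and TLR4 were not tested with a minimum of 5 FPKM. Over all genes 2 were called, against 1 with a pseudocount of 0.1, 1 with a minimum of 5 FPKM, 1 with the library number as a replicate block and 37 with library weights. Leaving out each library in turn gave 1 to 11 calls, the 11 without PBS library 3. Scaling by the median of ratios, which moved the median log2 difference of all genes to -0.01 from 0.06, turned the sign of TREM2 (-0.018), TLR4 (-0.011) and APOE (-0.00065). Library weights, which gave PBS library 3 a weight of 0.0838, turned CD68 (-0.34) and TLR4 (-0.28). With each library left out in turn, the log2 difference ranged from -0.0070 to 0.15 for TREM2, -0.43 to 0.39 for CD68, 0.29 to 0.64 for CD14, -0.25 to 0.17 for TLR4 and -0.10 to 0.42 for APOE. CD14 kept a positive difference under each alternative in which it was tested. The cause of these shifts was not tested. Deviations of libraries of equal number had correlations of -0.04, -0.19 and -0.42. With 3 libraries per group and PBS library 3 apart, these cannot settle whether the numbers pair samples. The percentile averaged over libraries, when taken among genes with a mean of at least 1 FPKM only, was 27.6 for TREM2, 11.5 for CD14 and 6.97 for TLR4. Unknown depth limits the precision of the low values of CD14 and TLR4.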
